A study of Mus musculus with 4 samples.

Results

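The genes described here are 10 genes of senescence and cell cycle arrest, of the 22913 genes in the expression tables of dermal white adipose tissue (dWAT), the fat layer under the dermis that surrounds the lower ends of hair follicles (HFs). They were chosen by symbol, and all 10 were found: Cdkn1a, Cdkn1b, Cdkn2a, Cdkn2b, Trp53, Mdm2, Gdf15, Lmnb1, Glb1 and Ccnd1. The study microdissected dWAT from the skin of C57BL/6 mice and sequenced its RNA to compare old with young tissue in telogen, the resting phase of the hair cycle, and in anagen, its growth phase. There was 1 library for each of the 4 groups: OTD (old mice, 18 months, telogen), YTD (young mice, 2 months, telogen), OAD (old mice, 18 months, anagen) and YAD (young mice, 2 months, anagen). Each group was drawn from 20 mice, and the sources used here do not say how their tissue was pooled. Both anagen groups had been depilated to start a new hair cycle, so phase and depilation cannot be told apart. The age tags of YTD (18 months) and OAD (2 months) contradict their titles and the treatment text, and the titles were followed. With 1 library per group there is no spread between replicates, so no test was made and every comparison sets 1 library against another.

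Cyclin-dependent kinase (CDK) inhibitors stop cells before they copy their DNA. Cdkn1a (p21) and Cdkn1b (p27) bind cyclin and CDK complexes, while Cdkn2a (p16Ink4a) and Cdkn2b (p15Ink4b) bind CDK4 and CDK6, the partners of cyclin D1 (Ccnd1). Trp53 (p53) switches on Cdkn1a after DNA damage, and Mdm2, itself a p53 target, marks p53 for destruction. Senescent cells have left the cycle for good after stress or damage, and they typically lose lamin B1 (Lmnb1), gain lysosomal beta-galactosidase (Glb1) and secrete inflammatory factors. Gdf15 is a secreted factor of stressed cells. The same genes also serve dividing and differentiating cells, and skin holds both in growing HFs.

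The values are FPKM, fragments scaled by gene length and by the fragments mapped in the library, as deposited. A change is the difference between 2 libraries in log2(FPKM + 1), a scale that shrinks changes at low FPKM, and a gene is called higher or lower when its change is at least 1 in size. The depth, read from the lowest FPKM values, was roughly 17400000 to 24400000 fragments per library. Intervals given with folds are 95% intervals of counting error from these rough fragments and do not cover differences between mice. A value of under 3 fragments is described as under the floor. The labelled tissue was checked against 15 adipocyte markers, all of which reached 1 FPKM and none of which was at 0. Their summed FPKM was 7343 to 8551 in telogen and 2149 to 3015 in anagen. The libraries also held markers of neighbouring tissues. Skeletal muscle markers summed to 80534 to 127986 FPKM in telogen and 14226 to 18487 in anagen, and hair matrix and shaft markers to 42.7 to 128 in telogen and 12299 to 12813 in anagen. Mitochondrially encoded genes held 44.7% to 52.7% of the summed FPKM in telogen and 14.4% to 18.3% in anagen. In such bulk tissue, more cells of a type and more RNA per cell cannot be told apart.

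Sequences before the transcription start are shown for the CDK inhibitor genes on which the results turn. RefSeq (GRCm38.p6) promoter windows matched 8 of the 10 genes, with 11 windows in all. Lmnb1 and Ccnd1 had no entry. Each sequence below is the 250 bases before a start, 5′ to 3′ on the strand of the gene, and capitals mark any motif of the following set, searched on both strands and chosen after the sequences were read: the GC box GGGCGG, the TATA box TATAAA, the E2F sites TTTCCCGC, TTTGGCGC, TTTCGCGC and TTTGCCGC, the AP-1 site TGACTCA, the CCAAT box CCAAT, the cyclic AMP response element TGACGTCA, and the p53 element of 20 bases with no gap and at most 1 mismatch. Cdkn1a is shown at its upstream and its downstream start, Cdkn2a at its distal start, which gives the p19Arf transcript, and at its proximal start, which gives p16Ink4a, and Cdkn2b at its single start.
Cdkn1a, upstream start, chr17:29090729-29090978, plus strand: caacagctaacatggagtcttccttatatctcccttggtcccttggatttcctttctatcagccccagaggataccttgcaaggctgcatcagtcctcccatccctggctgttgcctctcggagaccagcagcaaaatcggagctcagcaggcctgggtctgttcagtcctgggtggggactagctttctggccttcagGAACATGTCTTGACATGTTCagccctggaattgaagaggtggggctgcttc
Cdkn1a, downstream start, chr17:29093519-29093768, plus strand: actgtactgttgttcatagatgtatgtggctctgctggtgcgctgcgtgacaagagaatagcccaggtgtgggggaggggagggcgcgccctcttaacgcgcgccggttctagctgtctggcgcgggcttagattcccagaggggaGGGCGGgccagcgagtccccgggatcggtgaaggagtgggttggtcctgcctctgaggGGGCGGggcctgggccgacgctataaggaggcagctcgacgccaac
Cdkn2a, p19Arf start, chr4:89294620-89294869, minus strand: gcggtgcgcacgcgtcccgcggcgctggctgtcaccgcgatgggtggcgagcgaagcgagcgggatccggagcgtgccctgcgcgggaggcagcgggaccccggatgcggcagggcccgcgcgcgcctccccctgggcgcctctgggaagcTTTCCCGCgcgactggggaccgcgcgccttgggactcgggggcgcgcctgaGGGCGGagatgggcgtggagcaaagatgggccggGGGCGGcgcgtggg
Cdkn2a, p16Ink4a start, chr4:89282193-89282442, minus strand: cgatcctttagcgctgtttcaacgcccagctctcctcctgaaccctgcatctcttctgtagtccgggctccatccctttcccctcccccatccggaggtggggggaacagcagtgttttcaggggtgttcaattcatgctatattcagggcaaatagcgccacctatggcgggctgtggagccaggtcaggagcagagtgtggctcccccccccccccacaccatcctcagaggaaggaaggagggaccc
Cdkn2b, chr4:89311033-89311282, minus strand: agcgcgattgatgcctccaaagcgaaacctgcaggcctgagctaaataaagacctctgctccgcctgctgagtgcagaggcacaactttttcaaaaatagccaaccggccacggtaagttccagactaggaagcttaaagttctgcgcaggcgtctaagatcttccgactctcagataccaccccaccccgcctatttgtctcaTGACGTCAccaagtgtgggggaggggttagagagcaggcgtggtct

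The upstream Cdkn1a window held 1 p53 element, which was present in 0.0761% of 32851 promoter windows (25 windows). None of the other 10 windows of these genes held it. The downstream Cdkn1a window held 2 GC boxes, present in 32.7% of all windows. The p19Arf window had a GC content of 78.4%, with 2 GC boxes and 1 E2F site (1.86% of all windows), whereas the p16Ink4a window had a GC content of 60% and none of the motifs. The Cdkn2b window held 1 cyclic AMP response element, present in 1.55% of all windows. Among the windows not printed, Trp53 held a CCAAT box (33.8% of all windows) and the letters of a TATA box (12.4%). The latter were on the opposite strand, at the end of the window farthest from the start. Glb1 held an AP-1 site (4.46%). Cdkn1b held 1 GC box and 2 CCAAT boxes, Mdm2 held 2 GC boxes and 1 CCAAT box, and 1 Gdf15 window held 1 CCAAT box. These matches describe letters in the windows and were not tested as binding sites.

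The 10 genes spanned a wide range of levels, and more of them differed between phases than between ages, as was the case for all genes. Per length, Cdkn1a had the highest FPKM in each of the 4 libraries, and Gdf15 and Cdkn2a the lowest. The listed length of each of the 10 genes equals a coding length, without UTRs, so the level of one gene against another also depends on where fragments were counted, which is not given in the sources used here. The plot of FPKM by library shows all values.

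**Figure D1:**
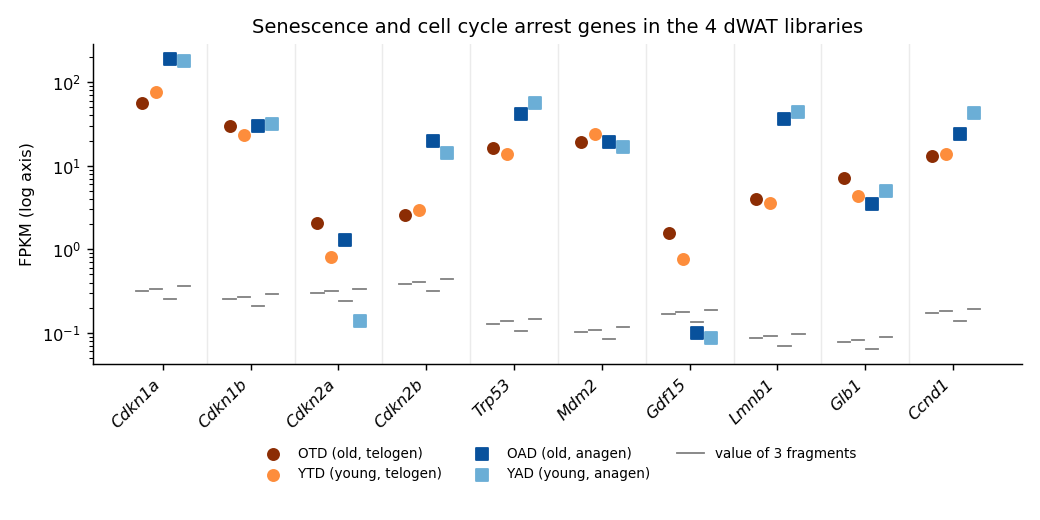
FPKM (log axis) of the 10 genes in the 4 libraries, with circles for telogen, squares for anagen and a grey dash at the value of 3 fragments for that gene and library; there is 1 library per group and so no error bar. Cdkn1a, Cdkn2b, Trp53, Lmnb1 and Ccnd1 had both anagen values above both telogen values, Gdf15 had both below, and Gdf15 in both anagen libraries and Cdkn2a in YAD lay under the dash.

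Across the telogen libraries none of the 10 genes was called, against 3.6% of the 17230 genes compared (1.67% higher and 1.93% lower). Their changes, old minus young, ran from -0.44 for Cdkn1a to 0.76 for Cdkn2a, with 6 higher and 4 lower, and their median was 0.17 against -0.03 for all genes. In anagen 1 of the 10 was called, Cdkn2a, which was higher in OAD, against 1.18% of 17613 genes (0.727% higher and 0.454% lower). The changes in anagen ran from -0.78 for Ccnd1 to 1.0 for Cdkn2a, with 5 higher, 5 lower and a median of -0.02 against 0.0 for all genes. Between phases more genes were called. In young dWAT 5 of the 10 were called higher in anagen and none lower, against 32.7% of 17622 genes called (16.1% higher and 16.7% lower), with a median of 0.81 against 0.02. In old dWAT 4 were called higher and 1 lower, against 31.7% of 17712 genes (16.1% higher and 15.6% lower), with a median of 0.42 against 0.01. Genes under 1 FPKM in both libraries cannot be called on this scale, so shares over all genes, here and below, are lower than over expressed genes. With a minimum of 1 FPKM in either library, the shares called were 4.78% between ages in telogen and 1.59% in anagen. Between phases they were 42.0% in young and 40.5% in old dWAT. Age and phase comparisons use the same 4 libraries, so they are not separate evidence.

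**Figure D2:**
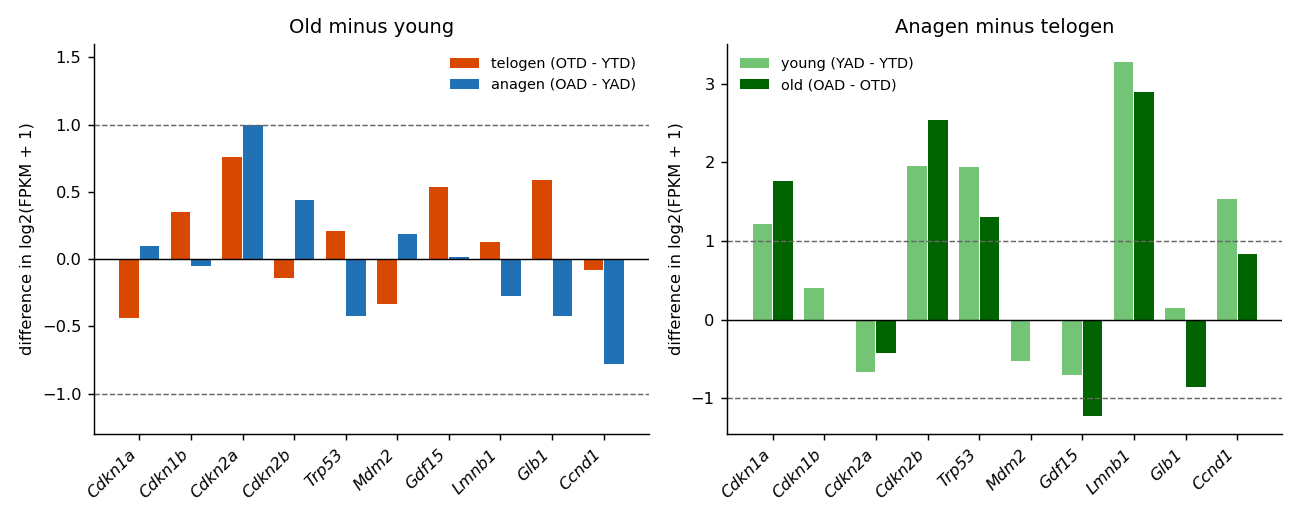
Change of the 10 genes as a difference in log2(FPKM + 1), old minus young on the left and anagen minus telogen on the right, with dashed lines at the call threshold of 1 in size. On the left only Cdkn2a in anagen reaches a line, at 1.0, while on the right Cdkn1a, Cdkn2b, Trp53 and Lmnb1 pass the upper line in both ages, Ccnd1 in young dWAT alone, and Gdf15 the lower line in old dWAT.

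Among the CDK inhibitors, Cdkn1a (p21, ENSMUSG00000023067, chromosome 17 from 29090979 to 29100722 on GRCm38) had 56.0 and 76.6 FPKM in OTD and YTD, and 192 and 179 in OAD and YAD. Both anagen values stood above both telogen values. Cdkn1a was 2.34-fold higher in anagen in young dWAT (interval 2.14 to 2.57) and 3.42-fold higher in old dWAT (3.11 to 3.77), changes of 1.22 and 1.76. By age it was lower in OTD than YTD, at 0.731-fold (0.651 to 0.82), a change of -0.44. In anagen the ages were nearly level, with a change of 0.1 that ran from -0.13 to 0.11 under other settings and so changed sign with the scaling. The p53 element printed above lies before the upstream of its starts, and the FPKM does not separate transcripts from the starts.

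Cdkn1b (p27, ENSMUSG00000003031, chromosome 6 from 134920401 to 134925513) had 30.1 and 23.4 FPKM in OTD and YTD, and 30 and 31.2 in OAD and YAD. As deposited its levels were the closest together of the 10 genes, with a range of 0.4 on the log2 scale, but its phase change in young dWAT was 1.22 in TPM and 1.4 without hair genes, and then called. YTD was the lowest library, and the other 3 differed by little. OTD was 1.29-fold YTD (1.1 to 1.52), and OAD was 0.964-fold YAD (0.832 to 1.12), an interval that includes no difference in counting terms.

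Cdkn2a (ENSMUSG00000044303, chromosome 4 from 89274471 to 89294653) had 2.06 and 0.807 FPKM in OTD and YTD, and 1.28 and 0.139 in OAD and YAD. The gene has 2 coding transcripts, that of p16Ink4a and that of p19Arf, which protects p53 from Mdm2. There is 1 value for the gene, so the transcripts cannot be told apart. The listed length of 510 bp equals the longest coding length, and how fragments of each transcript were counted is not given. The old library was the higher in each phase, and the order was OTD, OAD, YTD and YAD. These values stand for few fragments, roughly 20.8 and 7.7 in OTD and YTD and 16.0 and 1.23 in OAD and YAD, the last under the floor of 0.338 FPKM. OTD was 2.55-fold YTD, with an interval of 1.05 to 6.47, a change of 0.76 that was not called. OAD was 9.26-fold YAD, with an interval of 1.77 to 478 that shows how little the YAD value fixes. The change of 1.0 lies at the threshold, and it was 0.95 and no longer called when mitochondrially encoded genes were left out of the scaling. By phase, Cdkn2a changed by -0.67 in young and -0.42 in old dWAT, neither of them called, and the latter ran from -0.64 to 0.08 under other settings.

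Cdkn2b (p15Ink4b, ENSMUSG00000073802), which lies 11635 bp from Cdkn2a on the same strand of chromosome 4 (89306289 to 89311032), had 2.6 and 2.96 FPKM in OTD and YTD, and 20 and 14.4 in OAD and YAD. Both anagen libraries were well above both telogen libraries. It was 4.88-fold higher in anagen in young dWAT (3.02 to 8.06) and 7.68-fold higher in old dWAT (4.91 to 13.0). By age the telogen values were close, at 0.879-fold (0.444 to 1.65), with a change of -0.18 to 0.03 under other settings. In anagen OAD was 1.38-fold YAD (1.08 to 1.78), a change of 0.44 that was not called. Among 13568 genes with at least 1 FPKM in a library, the 3 with the nearest pattern to Cdkn2b over the 4 libraries, by distance between centred log2(FPKM + 1), were Ehf (0.07), an epithelial transcription factor, Arhgap40 (0.07) and Plcxd2 (0.08).

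Of the 7 CDK inhibitor genes listed, the 3 outside the 10 genes were all lower in anagen in both ages as deposited. Cdkn2c (p18Ink4c) had 29.2 FPKM in YAD and 70.0 in YTD, a change of -1.23. Cdkn1c (p57) had 11.0 in YAD and 24.3 in YTD, and 7.87 in OAD and 29.1 in OTD, changes of -1.08 and -1.76. In young dWAT neither lower call was left in TPM or without muscle or hair genes. Between ages, none of these 3 was called in either phase, against 3.6% of all genes in telogen and 1.18% in anagen. The median of the 7 inhibitors, old minus young, was -0.14 in telogen and 0.16 in anagen, and both changed sign with the scaling (-0.17 to 0.03 and -0.06 to 0.17), as did their phase medians (-0.67 to 0.18 in young and -0.29 to 0.64 in old dWAT).

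In the p53 pathway, Trp53 (ENSMUSG00000059552, chromosome 11 from 69580359 to 69591873) had 16.1 and 13.8 FPKM in OTD and YTD, and 41.5 and 55.8 in OAD and YAD. Anagen was above telogen in both ages. Trp53 was 4.04-fold higher in anagen in young (3.56 to 4.6) and 2.57-fold in old dWAT (2.29 to 2.9). OTD was 1.17-fold YTD (1.0 to 1.36), whereas OAD was 0.744-fold YAD (0.685 to 0.807), and neither difference was called. The anagen change of -0.42 was among the lower ones of all genes, with 4.4% of genes at or below it.

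Mdm2 (ENSMUSG00000020184, chromosome 10 from 117688888 to 117710758) had 19.2 and 24.3 FPKM in OTD and YTD, and 19.1 and 16.6 in OAD and YAD. Unlike Trp53 and Cdkn1a, it was not higher in anagen in either age as deposited. It changed by -0.53 between telogen and anagen in young dWAT and by -0.01 in old dWAT. By age it was 0.79-fold in telogen (0.705 to 0.885) and 1.15-fold in anagen (1.02 to 1.3). The signs between phases and between ages in anagen depended on the scaling, with ranges of -0.55 to 0.46 in young dWAT, -0.17 to 0.77 in old dWAT and -0.03 to 0.21 for age.

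Of 14 regulators of p53, 6 were called higher in anagen in young and 5 in old dWAT, and none lower. Over all genes 16.1% were called higher in each age. None of the 14 was called between ages, against 3.6% of all genes in telogen and 1.18% in anagen. Trp63, the p53 relative of epidermal basal cells, had 40.0 FPKM in YAD and 7.6 in YTD, and 39.7 in OAD and 5.42 in OTD. Chek1 and Chek2, kinases of the DNA damage response, changed by 1.55 and 1.02 in young dWAT and by 1.47 and 1.03 in old. Mdm4, the partner of Mdm2, changed by 1.05 and 1.06. The largest age change of the list in telogen was that of Trp73, with 0.211 FPKM in OTD and 0.76 in YTD (-0.54), and in anagen that of Trp53 itself.

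The 37 p53 target genes listed moved in no common direction in telogen, with 18 higher and 19 lower in OTD. In anagen, as deposited, 27 were higher and 10 lower in OAD, against 50.0% of all genes higher. By age, 1 was called in telogen and none in anagen, against 3.6% and 1.18% of all genes. The medians of the list, -0.03 and 0.15, changed sign with the scaling (-0.08 to 0.12 and -0.05 to 0.16). The anagen median of all expressed genes moved as well, from 0.0 as deposited to -0.21 in TPM. The called gene was Btg2, an antiproliferative gene that is also an immediate early gene, with 70.0 FPKM in OTD and 15.7 in YTD (2.09). The largest change in anagen was that of Bbc3, the gene of the apoptosis inducer Puma, with 4.04 in OAD and 6.31 in YAD (-0.54). Between phases 7 were called higher and 8 lower in young dWAT, and 8 higher and 9 lower in old, shares near the 16.1% and 16.7% of all genes in young and the 16.1% and 15.6% in old, and their medians of -0.08 and -0.14 reached 0.82 and 0.51 under other scalings. Perp, a desmosome gene of stratified epithelia, had 885 FPKM in YAD and 53.3 in YTD, and 987 in OAD and 32.3 in OTD. Plk3 and Psrc1 changed by 3.95 and 3.8 in young dWAT and by 3.78 and 3.74 in old. Ccng1, cyclin G1, was lower in anagen, at 31.5 in YAD against 355 in YTD and 30.4 in OAD against 204 in OTD, and Eda2r changed by -3.03 and -2.4.

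Gdf15 (ENSMUSG00000038508, chromosome 8 from 70629393 to 70632456) had 1.57 and 0.775 FPKM in OTD and YTD, and 0.0986 and 0.0867 in OAD and YAD. The telogen libraries were above the anagen libraries, which at roughly 2.19 and 1.38 fragments were both under the floor. OTD was 2.03-fold YTD (1.02 to 4.28), a change of 0.54 that was not called, and no fold is given in anagen. Against telogen, OAD stood at 0.0626-fold OTD (0.00669 to 0.23) and YAD at 0.112-fold YTD (0.00195 to 0.55). The change in old dWAT, -1.23, was the only one of the 10 genes called lower in a phase comparison, and that in young dWAT was -0.71.

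Gdf15 is also a gene of the integrated stress response, and the 15 genes of that list were led by another member between ages. Atf3, a stress transcription factor that is also an immediate early gene, had 41.6 FPKM in OTD and 11.2 in YTD (1.81), and 8.47 in OAD and 2.6 in YAD (1.4). It was the only gene of the list called between ages, and it was called in both phases. Over all genes 3.6% were called in telogen and 1.18% in anagen. The list's median was 0.21 in telogen and 0.09 in anagen, the latter from -0.01 to 0.1 over the scalings. Beside it, all 24 immediate early genes were higher in OTD, 20 of them called, and their median change was 1.37. Atf3 and Btg2 are themselves among the 24. Over all genes 1.67% were called higher. In anagen 19 were higher in OAD and 2 were called, Atf3 and Fos (median 0.31), against 0.727% of all genes called higher. Their part in the differences of Btg2 and Atf3 was not tested. In young dWAT 3 of the 15 stress response genes were called higher in anagen and 2 lower, against 16.1% and 16.7% of all genes. In old dWAT 2 were called higher and 4 lower, against 16.1% and 15.6%. Chac1, Sesn2 and Phgdh were the higher ones in young dWAT, by 1.78, 1.73 and 1.62. Vldlr and Atf3 were the lower ones there, by -2.08 and -1.76. Atf3 and Gdf15 were among the lower ones in old dWAT, at -2.17 and -1.23.

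Lmnb1 (lamin B1, ENSMUSG00000024590, chromosome 18 from 56707813 to 56753424) had 4.04 and 3.62 FPKM in OTD and YTD, and 36.2 and 43.9 in OAD and YAD. It had the widest range of the 10 genes, 3.28 on the log2 scale, and lay far higher in anagen in both ages. The fold was 12.1 in young (10 to 14.7) and 8.97 in old dWAT (7.57 to 10.8). By age, OTD was 1.12-fold YTD (0.863 to 1.43), so lamin B1 RNA was not lower in the old telogen library, and OAD was 0.826-fold YAD (0.768 to 0.889). Neither age change, 0.13 and -0.27, was called. The 3 genes nearest to its pattern were Cdca8 (distance 0.05), a mitotic chromosome protein, Dlx4 (0.07) and Pclaf (0.1), a PCNA partner in DNA synthesis.

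Other genes of the nuclear lamina and chromatin, and genes of dividing cells, were also higher in anagen. All 10 genes of the lamina and chromatin list were higher in anagen in both ages, 7 called in young (median 1.64) and 6 in old dWAT (median 1.2). Over all genes 16.1% were called higher in each age. Hmgb2 had 76.1 FPKM in YAD and 7.28 in YTD, and 61.4 in OAD and 9.43 in OTD. Ezh2, Lmnb2 and Lbr changed by 2.14, 2.1 and 1.86 in young dWAT and by 1.84, 2.09 and 1.3 in old. Between ages none was called, against 3.6% of all genes in telogen and 1.18% in anagen. In anagen 9 of 10 were lower in OAD (median -0.27), and the largest change was -0.33, in Tmpo. In telogen 7 of 10 were higher in OTD (median 0.1), and the largest change was that of Cbx5 (-0.37). Of 20 genes of dividing cells, all were called higher in anagen in both ages, with medians of 2.94 and 2.5. Mki67 had 0.843 FPKM in YTD and 25.5 in YAD. In anagen all 20 were lower in OAD, none called, at a median of -0.32 and Mki67 at 18.8 in OAD. In telogen 10 were higher and 10 lower, at a median of 0.0 (-0.03 to 0.14 over the scalings). The part of dividing cells in the Lmnb1 difference was not tested.

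Glb1 (ENSMUSG00000045594, chromosome 9 from 114401076 to 114474376) had 7.08 and 4.36 FPKM in OTD and YTD, and 3.44 and 4.95 in OAD and YAD. OTD was the highest and OAD the lowest library, so the age difference pointed up in telogen and down in anagen. OTD was 1.62-fold YTD (1.33 to 1.99) and OAD 0.695-fold YAD (0.557 to 0.869), changes of 0.59 and -0.42. Neither was called, and 93.5% of genes lay at or below the first and 4.3% at or below the second. Between phases, OAD was 0.486-fold OTD (0.398 to 0.593), a change of -0.86, while YAD was 1.14-fold YTD (0.908 to 1.42).

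Glb1 is one of 18 lysosomal genes listed, mostly hydrolases, with the membrane proteins Lamp1 and Lamp2 among them. None was called between ages, against 3.6% of all genes in telogen and 1.18% in anagen. In telogen 14 of 18 were higher in OTD (median 0.27). In anagen 12 were higher in OAD (median 0.1, but -0.11 to 0.12 over the scalings), and Ctsl led with 191 in OAD and 117 in YAD (0.7). Glb1 was thus among the 6 that were lower in OAD. Beside the telogen difference, 14 of 15 macrophage markers had more FPKM in OTD, with a median change of 0.47, a summed FPKM of 1061 against 632 and none at 0. In anagen 14 of 15 were lower in OAD, with sums of 441 against 483, of which Lgals3 alone held 331 and 344. As deposited, 12 of the 15 were called lower in anagen in both ages, with medians of -1.51 in young and -2.3 in old dWAT. Over all genes 16.7% and 15.6% were called lower. Lgals3 went the other way, by 1.72 and 0.74. Macrophages are rich in lysosomes, and their part in the Glb1 values was not tested.

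Ccnd1 (cyclin D1, ENSMUSG00000070348, chromosome 7 from 144929931 to 144939869) had 13.1 and 13.9 FPKM in OTD and YTD, and 24.2 and 42.3 in OAD and YAD. The telogen libraries were close, and both anagen libraries were higher, YAD more than OAD. It was 3.04-fold higher in anagen in young dWAT (2.61 to 3.55), which was called, and 1.84-fold in old (1.57 to 2.16), a change of 0.83 that was not. OAD was 0.572-fold YAD (0.509 to 0.643), a change of -0.78, and only 1.0% of genes changed as far down. In the same comparison 9 of 12 fibroblast and fat progenitor markers were lower in OAD (median -0.57, sums of 310 against 513 FPKM), with Col1a1 at -1.9, and 14 of 14 melanocyte markers (median -0.67, sums of 555 against 893), none of either list at 0. Hair matrix and shaft markers were lower in 14 of 18 cases (median -0.17). Other lists went the other way as deposited. Adipocyte markers were higher in OAD in 15 of 15 cases and endothelial markers in 12 of 12, each at a median of 0.3. Epidermal markers were higher in 10 of 13 cases (median 0.26) and skeletal muscle markers in 15 of 20 (median 0.27). The part of these cells in the Ccnd1 difference was not tested. Ccnd1 crossed the threshold, at -1.0 to -1.01, in TPM and when muscle or hair genes were left out of the scaling, which put the median of all expressed genes at -0.2 to -0.21. In telogen OTD was 0.944-fold YTD (0.783 to 1.14), a change of -0.08 that ran from -0.13 to 0.13 under other settings.

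Of the 15 other G1 genes listed, 7 were called higher in anagen in young and 7 in old dWAT, and none was called lower. Over all genes 16.1% were called higher in each age. Cdk4, the kinase partner of cyclin D1, had 111 FPKM in YAD and 29.7 in YTD, and 87.2 in OAD and 32.0 in OTD. Ccnd2 (cyclin D2) changed by 1.8 in young and 1.46 in old dWAT, Ccne1 (cyclin E1) by 2.0 and 1.9, Cdk2 by 2.26 and 1.45, and E2f2 by 2.32 and 3.0. Between ages, with Ccnd1 counted, 14 of 16 were lower in OAD (median -0.25), and 12 were lower in OTD (median -0.16, but -0.18 to 0.02 over the scalings). None was called between ages, against 3.6% of all genes in telogen and 1.18% in anagen. The largest telogen change was that of E2f2, with 1.26 in OTD and 3.15 in YTD (-0.88).

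Secreted factors that senescent cells are known to release differed between ages in telogen, as the plot of gene lists shows. Of 44 genes with a value, 13 were called higher in OTD than YTD and none lower, with a median of 0.62 and 37 higher in all. Over all genes, 1.67% were called higher and 1.93% lower. The list was chosen with earlier results of these data known. It holds genes that the paper itself names as raised in OTD, among them Cxcl1, Mmp12 and Spp1, so it is not independent of them. Mmp12, a macrophage elastase, had 56.7 FPKM against 1.47, and the chemokine Cxcl1 15.1 against 0.109. Il6, Spp1 and Ccl7 changed by 2.55, 1.98 and 1.74. The YTD values of Cxcl1 and Il6 were under the floor, so the sizes of their changes depend on the pseudocount. In anagen none was called higher and 1 lower, against 0.727% and 0.454% of all genes. The lower one was Fgf7, a growth factor of epithelia, with 2.13 in OAD and 5.35 in YAD (-1.02). The median of the factors was 0.03 (-0.14 to 0.04 over the scalings). In the same telogen comparison none of the 7 CDK inhibitors was called, against 3.6% of all genes. At that share, no call among 7 genes does not set them apart from all genes. Cdkn2a, the highest of them at 0.76, was called at 1.25 with a pseudocount of 0.1. The macrophage and immediate early genes given above moved the same way as the secreted factors. So did 12 of 12 endothelial markers, higher in OTD at a median of 0.58 and sums of 651 against 420 FPKM, and 10 of 12 fibroblast and fat progenitor markers, higher at a median of 0.39 and sums of 2193 against 1607. Hair matrix and shaft markers were lower in 18 of 18 cases (median -1.06) and skeletal muscle markers in 20 of 20 (median -0.7), and no marker of these 4 lists was at 0. The part of these cells was not tested. Between phases, 15 of the secreted factors were called lower and 5 higher in young dWAT, and 25 lower and 6 higher in old. Over all genes, 16.7% were called lower and 16.1% higher in young, and 15.6% and 16.1% in old. The young median of the factors, -0.67, reached 0.05 under another scaling. Serpinb2 was higher in anagen by 3.85 and 4.31, and Ccl2 lower by -2.25 and -3.73.

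**Figure D3:**
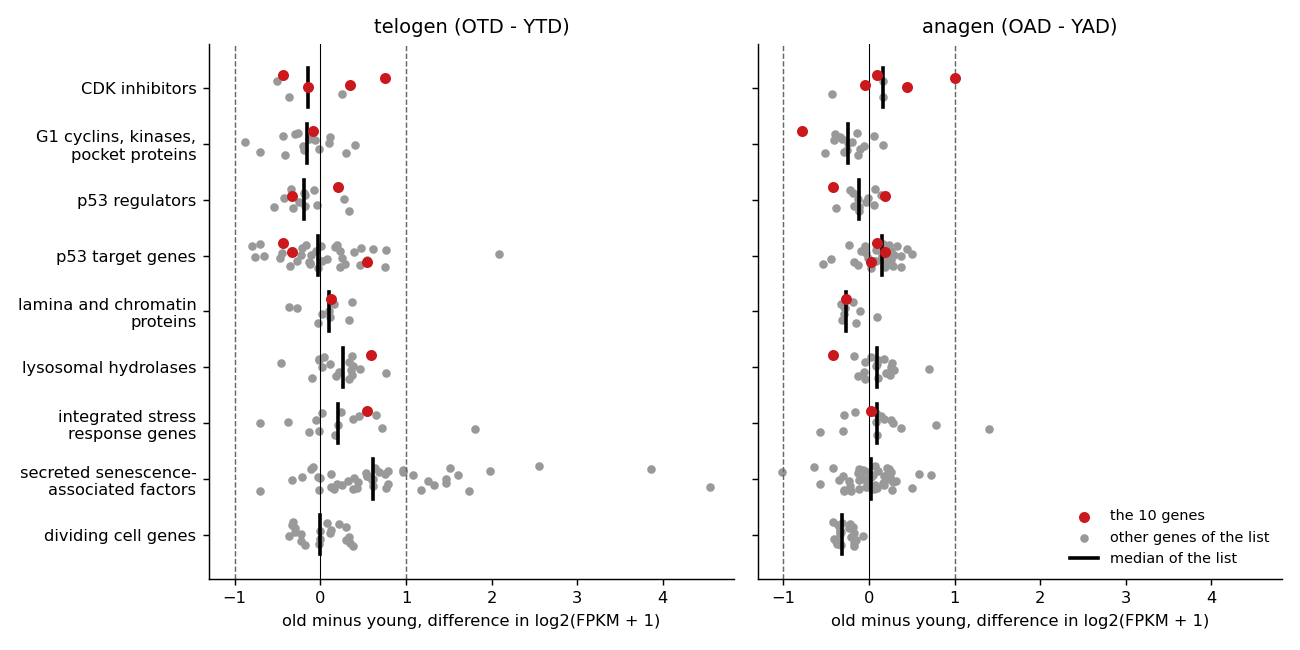
Old minus young change in log2(FPKM + 1) of each gene of 9 lists, in telogen on the left and anagen on the right, with the 10 genes in red, other genes in grey, the median of each list as a black bar and dashed lines at the call threshold. In telogen the secreted factors reach 4.55 with a median of 0.62. The CDK inhibitors run from -0.51 to 0.76 there, between the lines as most genes are. In anagen all 20 dividing cell genes lie below 0.

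Markers of epithelial and pigment cells differed between phases together with Cdkn1a, Cdkn2b, Trp53, Lmnb1 and Ccnd1. All 18 hair matrix and shaft markers were called higher in anagen in both ages, with medians of 5.34 and 6.3. Over all genes 16.1% were called higher in each age, and 16.7% lower in young and 15.6% in old dWAT. Of 13 epidermal markers, 11 were called higher in young (median 2.66) and 9 in old dWAT (median 3.99), with summed FPKM of 125 to 186 in telogen and 3102 to 3918 in anagen, and 1 marker at 0 in YTD. Melanocyte markers summed to 27.9 to 28.7 FPKM in telogen and 555 to 893 in anagen. Adipocyte markers were lower in anagen, 14 of 15 called in young and 12 in old dWAT, with medians of -1.59 and -1.37, and all 12 endothelial markers were called lower in both. Under other scalings as few as 3 of the adipocyte and 1 of the endothelial markers were called in young dWAT, with medians still below 0. Fibroblast and fat progenitor markers were called lower in 9 of 12 cases in young and 11 in old dWAT. T cell markers were near absent, with sums of 1.31 to 2.99 FPKM. The part of these cells in the phase differences of the 10 genes was not tested.

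Because libraries of the 2 phases differ so much in mitochondrial, muscle and hair RNA, the phase changes were set side by side under 5 rescalings. Leaving out hair shaft and melanocyte genes moved the median of all expressed genes from 0.03 to 0.92 in young and from 0.05 to 0.75 in old dWAT, and the split of all calls from 49.1% to 86.5% higher in young and from 50.8% to 82.8% in old. Relative to the median of all expressed genes, the median of the 10 genes was 0.9 and 0.44, against 0.78 and 0.37 as deposited. Cdkn1a, Cdkn2b, Trp53 and Lmnb1 were called higher in anagen in both ages under each of these rescalings. Their lowest changes were 1.59, 2.4, 1.15 and 2.74 in old dWAT and 1.23, 1.97, 1.95 and 3.29 in young. For Cdkn1b, Cdkn2a and Mdm2 the sign in at least 1 age depended on the scaling, and so did calls of Cdkn1b, Gdf15, Glb1 and Ccnd1, as the plot of rescaled phase changes shows.

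**Figure D4:**
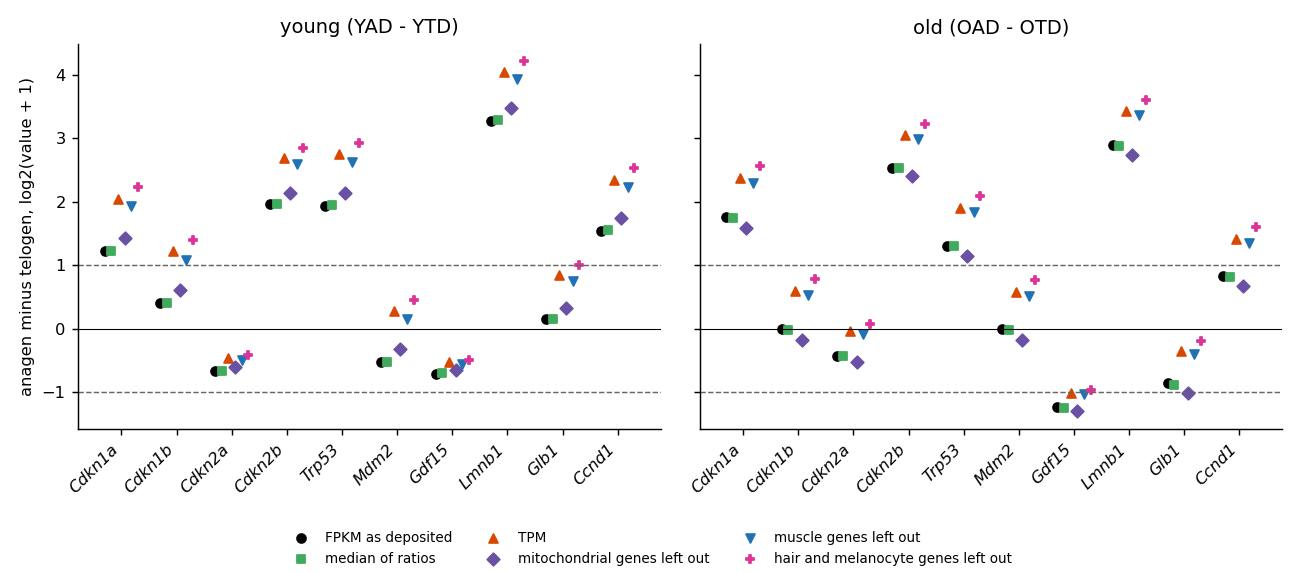
Anagen minus telogen change in log2(value + 1) of the 10 genes in young (left) and old (right) dWAT, as deposited (black circles) and under 5 rescalings, with dashed lines at the call threshold. Lmnb1, Cdkn2b, Trp53 and Cdkn1a stay above the upper line under all of them, while Mdm2 crosses 0 and Cdkn1b reaches from 0.4 to 1.4 in young dWAT.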

How the data were processed

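RNA of microdissected dWAT (RNA integrity number above 7.5, Illumina HiSeq) was measured in 4 libraries, 1 each for OTD, YTD, OAD and YAD. The deposited tables hold FPKM of 22913 genes, with positions on GRCm38. The submitters' processing notes name bcl2fastq and TopHat2, and the counting tool and annotation are not given in the sources used here. Of the Ensembl identifiers, 21750 were matched to a symbol, and 4761 genes are at 0 in all libraries. Values were used as the authors deposited them, and changes are differences of log2(FPKM + 1) with a call threshold of 1. With 1 library per group no test was made. A test on counts needs deposited counts and was not run.

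The 10 genes and 19 gene lists (333 of 336 genes matched) were chosen with earlier results of these data known. Named genes are the 10, and per list and comparison up to 5 called genes with the largest change or, where none was called, the largest change, and some of these are not reported here. For the depth, the value of 1 fragment was read from the lowest FPKM of features 2000 to 4000 bp long. Fold intervals are exact conditional binomial intervals, and they and the floor of 3 fragments cover counting error only. In simulated libraries 200 of 200 changed genes were called, with 0 to 7 of 22713 unchanged genes. The changes put in were well above the call threshold and only in genes of at least 5 FPKM in the second library. Counting error was the only noise. The simulation therefore does not cover smaller changes, changes of genes at low FPKM or differences between mice. Alternatives were a pseudocount of 0.1, a minimum of 1 FPKM, TPM, median of ratios, 3 rescalings without gene groups and a 1.5-fold threshold. Python 3.11.15, numpy 2.4.6, pandas 2.3.3, scipy 1.17.1 and matplotlib 3.10.9 were used.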

Additional observations from a re-analysis of the deposited data

Results flagged for a closer look

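Glb1 was the gene whose age difference pointed in opposite directions in the 2 phases with at least a 1.25-fold difference in each, a size chosen after the values were seen. It was higher in OTD than YTD, by 0.59 in log2(FPKM + 1), and lower in OAD than YAD, by -0.42. The difference between these changes is -1.01 for anagen minus telogen. With 1 library per group this difference was not tested. The direction held under each alternative setting, with ranges of 0.52 to 0.78 in telogen and -0.64 to -0.41 in anagen.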

How the results depend on the processing

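No paired analysis was possible because each group has 1 library. In the telogen age comparison, where no gene of the 10 was called, a pseudocount of 0.1 called 1 (Cdkn2a, 1.25) and a 1.5-fold threshold 2, and the median of 0.17 became 0.36 without mitochondrially encoded genes. In the anagen age comparison, with 1 called, TPM called 2, leaving out muscle genes 2, leaving out hair and melanocyte genes 2, and a 1.5-fold threshold 2, the added gene in the rescalings being Ccnd1, and leaving out mitochondrially encoded genes called 0. The median there, -0.02, became -0.21 in TPM, -0.14 without mitochondrially encoded genes, -0.2 without muscle and -0.19 without hair genes. In young dWAT the phase median of 0.81 became 1.38 with a minimum of 1 FPKM (8 genes kept), 1.64 in TPM, and 1.02, 1.51 and 1.82 without mitochondrially encoded, muscle and hair genes. In old dWAT, 0.42 became 1.0 in TPM, and 0.25, 0.94 and 1.2 without those groups. Relative to the median of all genes with at least 1 FPKM, which TPM shifted to -0.21 in anagen age, 0.76 in young and 0.58 in old phase, the medians in TPM were 0.22, 0.0, 0.88 and 0.43 in telogen age, anagen age, young phase and old phase, against 0.23, -0.02, 0.78 and 0.37 as deposited.

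The share of all calls that were higher moved from 46.3% to 72.5% in telogen age without mitochondrially encoded genes, and to 37.3% without muscle genes. In anagen age it moved from 61.5% to 37.3% in TPM, 45.3% without mitochondrially encoded genes, 37.4% without muscle and 36.5% without hair genes. In TPM it was 82.2% in young and 76.6% in old phase, and without muscle genes 78.6% and 74.3%. A pseudocount of 0.1 raised the share of all genes called to 12.4% in telogen age and 6.3% in anagen age, and the 1.5-fold threshold to 16.0% and 4.97%. Single genes changed sign in 2 of 70 values in telogen age, 8 of 69 in anagen age, 3 of 68 in young and 7 of 70 in old phase, and changed their call in 1, 4, 6 and 6. Depth limits Cdkn2a and Gdf15, whose lowest values stand for about 1 to 2 fragments, and differences between mice were not measured.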
